A study of Drosophila melanogaster with 8 samples.

Results

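The nuclear tRNA genes of Drosophila melanogaster were examined for NELF-E, a subunit of the Negative Elongation Factor (NELF), in Kc167 cells. The members are all genes of biotype tRNA in the Ensembl annotation of BDGP6 (dm6) that lie on the nuclear chromosome arms, 290 of 18277 annotated genes. For each gene a window was set from 250 bp before its first base to 250 bp after its last base, and a NELF-E peak was counted when it overlapped this window by at least 1 bp. Genes with the start of any transcript of a protein-coding gene within 1000 bp were called near (80 genes), and the other 210 were called isolated. The rule uses no measured value.

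NELF-E binding was mapped by ChIP-seq, the sequencing of immunoprecipitated chromatin, in 2 groups of 2 libraries. Kc167 is a female cell line of embryonic origin, described in the study as embryonic hemocyte cells. Mock cells were transfected with no dsRNA or siRNA, and knockdown cells were transfected with an siRNA against AGO2, the Argonaute protein of the siRNA pathway. Cells of both groups were collected 3 days after transfection. The mock cells therefore received no control siRNA, and the peak lists carry no measure of AGO2 itself. The study's methods report that the knockdown was checked by Western blotting. Each library gave its own list of peaks, of 7944 peaks for mock replicate 1, 6933 for mock replicate 2, 5904 for AGO2 knockdown replicate 1 and 6206 for AGO2 knockdown replicate 2. The genome-wide background of each library, in fragments per site, was 4.46 and 2.19 in the mock libraries and 1.18 and 1.48 in the knockdown libraries, so both mock libraries were deeper than both knockdown libraries and depth and treatment cannot be told apart in these lists. Of 8 hemocyte marker genes, 6 (srp, ush, Pxn, Hml, vkg and Col4a1) had a NELF-E peak at a start in all 4 lists, and He and NimC1 had none in any list. The background for a peak at any start in all 4 lists was 34.1% of the 13968 protein-coding genes.

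tRNA genes are transcribed by RNA polymerase III (Pol III), not by RNA polymerase II (Pol II). Their promoter lies inside the transcribed sequence, as the A box and the B box. Both boxes are bound by TFIIIC, which places TFIIIB upstream of the start to recruit the polymerase. NELF is known for the opposite kind of promoter, where it holds Pol II shortly downstream of the start of protein-coding genes together with DSIF. tRNA genes occur in clusters of near-identical copies, often inside or beside protein-coding genes, so a peak near a tRNA gene can lie at a neighbouring Pol II start.

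The following tRNA genes are shown because each has a NELF-E peak in all 4 lists within 550 bp, and only the first has it inside the 250 bp window. The sequences run 5′ to 3′ and come from the RefSeq genome of the same assembly, and the capitals mark the B box, matched to its consensus. The first gene holds an intron.
tRNA:Tyr-GTA-1-8, chr3R:8669081-8669174, minus strand: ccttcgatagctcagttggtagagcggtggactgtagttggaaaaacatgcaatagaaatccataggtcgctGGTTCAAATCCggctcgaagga
tRNA:Leu-TAA-2-1, chr3R:24112964-24113047, plus strand: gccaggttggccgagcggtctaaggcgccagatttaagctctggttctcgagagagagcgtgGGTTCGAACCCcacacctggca
tRNA:Val-CAC-2-5, chr3R:19672277-19672349, minus strand: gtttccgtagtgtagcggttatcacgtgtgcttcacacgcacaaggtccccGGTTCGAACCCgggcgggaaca
tRNA:Pro-CGG-2-1, chrX:18565764-18565835, plus strand: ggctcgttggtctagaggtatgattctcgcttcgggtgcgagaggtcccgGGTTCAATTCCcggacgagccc

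The B box consensus, read on the transcribed strand, was present in 226 of the 290 tRNA genes (77.9%). Read on both strands, it was present in 0.538% of 600 bp tiles of the same arms and in 0.505% of 600 bp windows around protein-coding starts. In 600 bp windows around NELF-E summits, the positions of highest signal, it was present in 0.544% and 0.463% of the mock peaks and in 0.51% and 0.518% of the knockdown peaks. Windows around summits thus held a match of this consensus about as often as tiles of the same length, with 3 of the 4 shares a little under that of the tiles. A match was found in 1188 tiles, far more than the 226 tRNA genes with one, so most matches in tiles do not mark a tRNA gene. A match of this consensus is not a binding site by itself.

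NELF-E peaks were rare at tRNA genes. In mock replicate 1, 8 of the 290 windows (2.76%) held a peak, and in mock replicate 2, 5 windows (1.72%) did. In AGO2 knockdown replicate 1, 5 windows (1.72%) held a peak, and in replicate 2, 3 windows (1.03%) did. The background in the same 4 lists was 6.33%, 5.26%, 4.43% and 4.75% of 220885 tiles of 600 bp, which cover the 5 arms that carry tRNA genes. It was 42.3%, 37.4%, 33.2% and 35.2% of the 17987 other annotated genes, each extended by 250 bp on both sides. These windows hold the whole gene with its start, so they are not matched to the tRNA windows in length. The tiles are the background of similar length. In each of the 4 lists the share of tRNA windows with a peak was therefore under that of both backgrounds. Over all lists, 8 genes (2.76%, 95% Wilson interval 1.4 to 5.35) had a peak in at least 1 list and 282 genes (97.2%) had none in any, against 6.65% of tiles and 43.0% of other genes with a peak in at least 1 list. A peak in all 4 lists was found at 3 genes (1.03%, Wilson interval 0.352 to 3.0), against 3.9% of tiles and 31.1% of other genes. These intervals cover counting error over genes only, and tRNA genes of a cluster share their surroundings: the 290 windows merged into 196 loci.

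No tRNA gene was itself covered. None of the 26987 peaks of the 4 lists overlapped a base of any of the 290 tRNA genes, whereas 3.75% and 2.96% of the central 100 bp of tiles were overlapped under mock treatment and 2.4% and 2.66% after AGO2 knockdown. The smallest gap between a peak and a tRNA gene was 3 bp. Of the 21 peaks that reached a window, 7 overlapped it by under 50 bp, with 6 bp the smallest overlap, and only 1 had its summit inside the window, 230 bp from the gene. Averaged over all 290 genes, the share with a peak in a 50 bp bin was 0.259% and 0.172% under mock treatment and 0.0% in both knockdown lists from 100 bp before to 100 bp after the start. It was 3.74%, 2.63%, 2.23% and 2.3% in the same order from 2000 to 500 bp upstream, and 3.68%, 3.09%, 2.22% and 2.26% from 500 to 2000 bp downstream. Protein-coding genes had the reverse shape, with 36.0%, 29.2%, 24.2% and 26.4% of genes covered from 100 bp before to 100 bp after the start.

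**Figure D1:**
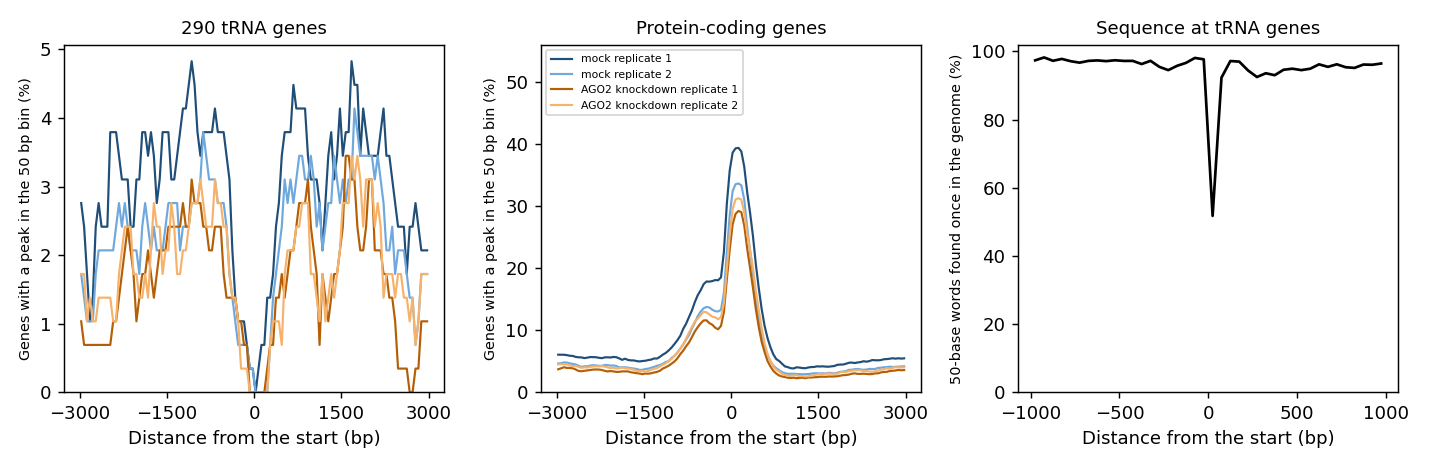
Left and middle, share of genes with a NELF-E peak in each 50 bp bin (y axis, %) by distance from the gene start in the direction of transcription (x axis, bp), with a line for each library, for the 290 tRNA genes and for the 13968 protein-coding genes. Right, share of 50-base words centred in each bin that occur once in the genome (%), for the tRNA genes. The y axes differ in range: tRNA genes reach at most 4.83% and fall to 0% at the start, where protein-coding genes reach 29.2 to 39.4%.

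Part of the sequence of tRNA genes cannot give reads in these lists, because reads were 50 bases long and those with a mapping quality under 20 were removed. The 290 genes have 95 distinct sequences, and 238 genes have at least 1 identical copy, up to 13 genes for a single sequence. In 238 gene bodies no 50-base word occurred once in the genome, and 20 bodies consisted of such words alone. The flanks are mostly distinct: the median window had 94.1% of its words once in the genome, and 285 of 290 windows had at least 50%. Without the other 5 windows, 8, 5, 5 and 3 windows still held a peak in the 4 lists. Words centred in the first 50 bp of the gene were found once in 51.8% of cases. The share was 97.7% for words centred in the 50 bp before it and 97.2% from 100 to 150 bp after the start, where peak coverage was also low. None of the 20 bodies made only of such words was overlapped by a peak. With 2.4 to 3.75% of tile centres overlapped in a list, 20 bodies are too few to show a difference. Only exact repeats of a word were counted, so similar copies may still have cost reads there. The part that lost reads play in the low count over the gene bodies was not tested further.

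Among gene classes, counted within 250 bp of the start, tRNA genes had few peaks. Of the 290 tRNA starts, 7, 2, 4 and 1 had a peak in the 4 lists (2.41%, 0.69%, 1.38% and 0.345%). Protein-coding starts, which are made by Pol II, had 43.6%, 38.4%, 33.5% and 35.6%. The 32 snRNA genes, most of which are Pol II genes, had 40.6%, 31.2%, 18.8% and 21.9%, and the 269 snoRNA genes had 17.8%, 12.6%, 11.5% and 14.9%. Genes annotated as ncRNA had 12.4%, 10.0%, 9.06% and 9.21%, and pseudogenes had 4.55%, 2.73%, 1.82% and 2.12%. Only the 99 rRNA genes were lower, with no peak in any list, but their start windows had a median of 0% of words once in the genome. The median was 93.4% for tRNA starts and 100% for protein-coding starts. Each order given here is over genes of single libraries and carries no test.

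**Figure D2:**
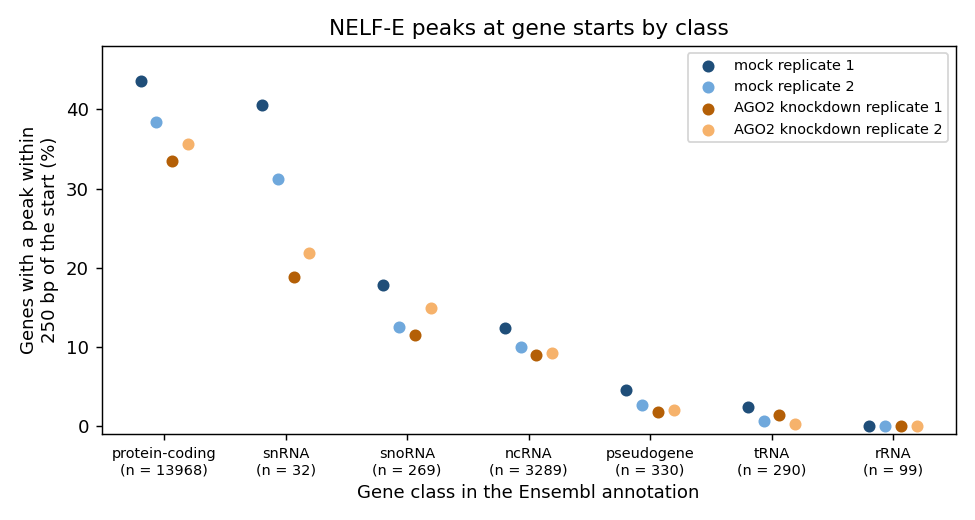
Share of genes with a NELF-E peak within 250 bp of the start (y axis, %) for 7 gene classes of the Ensembl annotation (x axis, with the number of genes), with a point for each library. The 4 tRNA points lie between 0.345 and 2.41%, under every point of the snRNA, snoRNA, ncRNA and protein-coding classes.

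The few peaks went with protein-coding starts. Of the 80 near genes, 6 and 3 had a peak under mock treatment (7.5% and 3.75%) and 4 and 2 after AGO2 knockdown (5.0% and 2.5%). Of the 210 isolated genes, 2 had a peak in each mock list (0.952%) and 1 in each knockdown list (0.476%). The share was 3.97 percentage points higher in near than in isolated genes (mean over the 4 lists, SD 2.01), and higher in each of the 4 lists. Tiles with a protein-coding start within 1000 bp had a peak in 25.5%, 21.6%, 18.8% and 20.2% of cases, above the near tRNA genes in each list. Tiles with no such start had 1.23%, 0.896%, 0.599% and 0.611%, a background of the size found at the isolated tRNA genes. In at least 1 list, 6 near and 2 isolated tRNA genes had a peak, against 26.5% and 1.36% of such tiles. The near sets differ in distance: 3086 of 46503 near tiles held a start in their central 100 bp, against 1 of 80 near tRNA genes. At 200 to 1000 bp from a start, 7.89% of 76 tRNA genes and 19.9% of 32670 tiles had a peak in at least 1 list.

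All 15 peaks in the windows of near genes had their summit closer to the protein-coding start than to the tRNA gene. Each of these summits lay downstream of the protein-coding start nearest to the summit, at 6 to 400 bp, and 14 of the 15 lay within 150 bp of it. At tRNA:Phe-GAA-1-2 that is not the start nearest to the tRNA gene, from which the summits lay 73 to 95 bp downstream. The tRNA gene was upstream of the neighbouring start at 55 of the 80 near genes and downstream at 25. The median distance to that start was 535 bp, and only 1 tRNA gene overlapped a protein-coding start, tRNA:Tyr-GTA-1-9 at Ntl, with no peak in any list.

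Some of the protein-coding starts beside tRNA genes were occupied. Of 61 protein-coding genes with a start within 1000 bp of a tRNA gene, 13 (21.3%, Wilson interval 12.9 to 33.1) had a peak at such a start in all 4 lists. The background was 34.1% of all 13968 protein-coding genes, counted at any start (Wilson interval 33.3 to 34.8). The background counts every start of a gene and the neighbours only the starts within 1000 bp, so the starts were also counted singly. Of 71 starts within 1000 bp of a tRNA gene, 15 (21.1%) had a peak in all 4 lists, against 31.8% of 19039 other protein-coding starts. These shares were not tested against each other. Seen from the tRNA genes, the nearest protein-coding start was occupied in all 4 lists for 2 of 11 genes at 1 to 250 bp, 4 of 21 farther off up to 500 bp and 6 of 47 beyond that up to 1000 bp. For tiles at the same distances the shares were 28.3%, 26.4% and 27.3%. Where that start was occupied, the tRNA window held a peak in at least 1 list at 2 of 2, 3 of 4 and 0 of 6 genes, against 99.4%, 86.0% and 38.2% of tiles. An occupied start thus came with a peak in the window at all but 1 of the 6 genes up to 500 bp and at none of the 6 genes beyond, and these numbers are too small for a comparison.

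tRNA:Tyr-GTA-1-8 had the strongest peak of all members. It lies inside CG8036 (annotated with transketolase activity) and p, 444 bp from a start of CG8036. The fold of the peak over its local background was 18.65 and 29.96 under mock treatment and 42.38 and 22.2 after AGO2 knockdown, so the groups overlapped. The fragments at the summit were 283 and 243 under mock treatment and 176 and 177 after AGO2 knockdown. These peaks ranked at percentiles 98.1, 98.9, 96.3 and 94.0 of their own lists by score, which is near the top in every library. They ended 39, 16, 111 and 129 bp short of the tRNA gene, and their summits lay 9 to 24 bp downstream of the start of CG8036. The 30 bases below hold that start at position 6, and the capitals span the lowest to the highest of the 4 summits.
CG8036 start, chr3R:8669613-8669642, plus strand: gacgagagcagttcGTTCCCAGAAGCCGGC

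tRNA:Phe-GAA-1-2 lies at chrX:6744471-6744543 on the minus strand, 233 bp from RpL17, which encodes a protein of the large ribosomal subunit. It belongs to a family of 8 identical genes and was the only member of it with a peak. The fold was 10.24 and 8.8 under mock treatment and 5.99 and 5.98 after AGO2 knockdown. Fragments at the summit were 88 and 39 against 24 and 28, and the percentiles were 65.8 and 54.7 against 40.2 and 43.3. Both mock values were above both knockdown values on each scale. The mock libraries were also the deeper ones, so depth and treatment cannot be told apart here. The gaps to the tRNA gene were 170, 202, 173 and 212 bp. The summits lay 6 to 28 bp downstream of a start of RpL17 and 73 to 95 bp downstream of the other start nearby. The 30 bases below hold the first of these starts at position 2, with the span of the 4 summits in capitals.
RpL17 start, chrX:6744143-6744172, minus strand: tattttcCGAAAATTGCCACTTAAATCGTA

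tRNA:Glu-TTC-1-5 was the only isolated gene with a peak in all 4 lists (0.476% of isolated genes, against 0.441% of tiles with no protein-coding start within 1000 bp). It lies at chr2R:19727460-19727531 on the minus strand, with the nearest protein-coding start, that of CG8517, 13384 bp away. The fold was 12.12 and 9.09 under mock treatment and 4.59 and 4.34 after AGO2 knockdown. Fragments at the summit were 78 and 28 against 11 and 12, and the percentiles were 65.8 and 48.5 against 13.1 and 13.5. The groups did not overlap on any of these scales, and again the shallower libraries had the lower values. The peaks came to 66, 195, 205 and 221 bp from the tRNA gene. Their summits lay 17 to 37 bp upstream of the annotated start of snoRNA:185, a small nucleolar RNA gene, and 271 to 291 bp from the tRNA gene. This peak was thus also closer to another gene's start than to the tRNA gene.

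**Figure D3:**
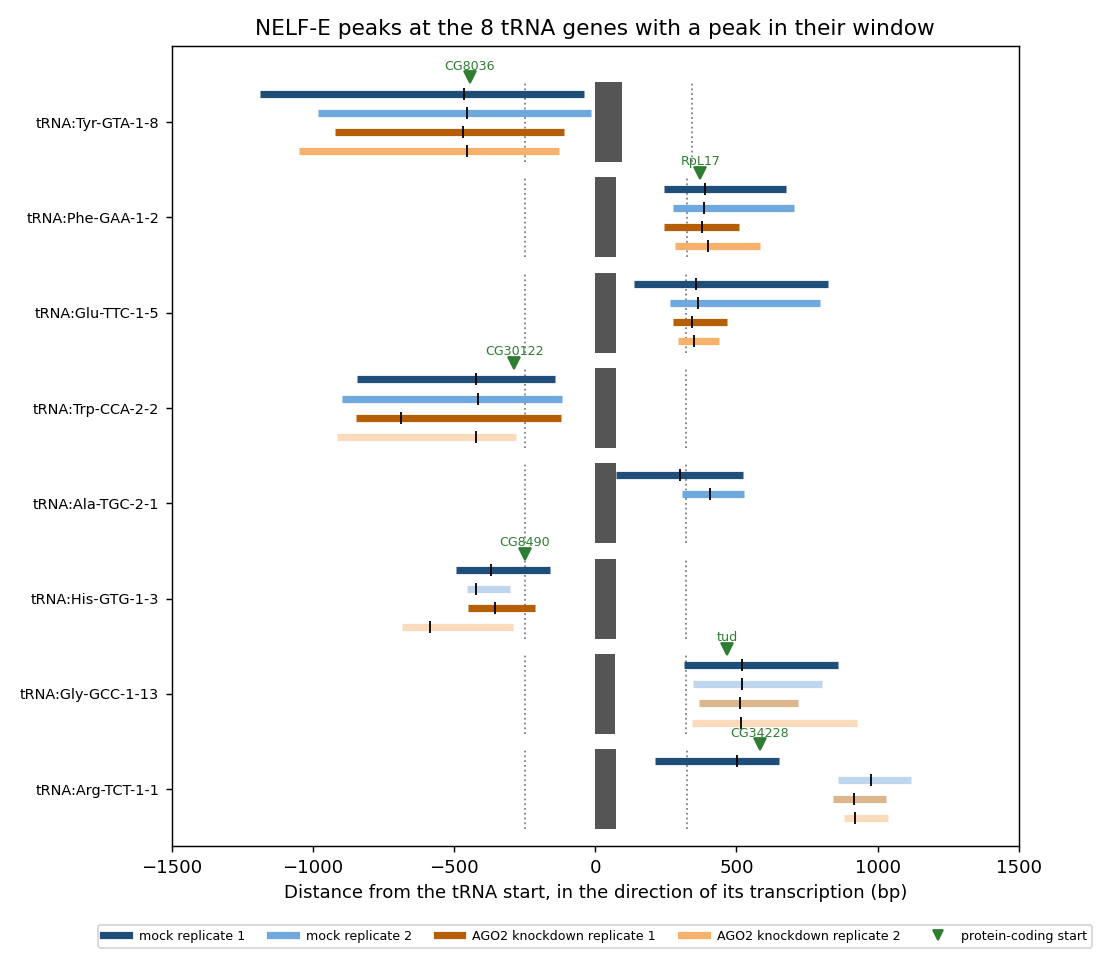
Map of the NELF-E peaks at the 8 tRNA genes with a peak in their window: distance from the tRNA start in the direction of its transcription (x axis, bp), with a coloured bar for the nearest peak of each library and a black tick at its summit. Grey boxes are the tRNA genes, dotted lines the ends of the window, green triangles the nearest protein-coding start, and pale bars peaks outside the window. No bar reaches a grey box, and only the mock replicate 1 peak at tRNA:Ala-TGC-2-1 has its tick between the dotted lines.

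tRNA:Ala-TGC-2-1 (chr2R:17392215-17392286, plus strand) was the other isolated gene with a peak, and the only member with a peak in both mock lists and neither knockdown list (1 of 290, 0.345%). The background for that pattern was 0.531% of tiles, 0.207% of tiles with no protein-coding start within 1000 bp and 2.38% of other genes. The fold was 4.74 in mock replicate 1, with 66 fragments at the summit and a gap of 3 bp to the tRNA gene, the closest of all peaks. In mock replicate 2 the fold was 3.66, with 19 fragments and a gap of 235 bp. In the knockdown lists the nearest peaks were 20544 and 20437 bp away. The smallest numbers of fragments at any summit in those lists were 6 and 7. A missing peak there means only that none was called, and why none was called was not tested. The nearest protein-coding start, that of CG10939, is 2307 bp away. No member had a peak in both knockdown lists and neither mock list, against 0.0131% of tiles.

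At the other 4 genes the count of lists was set by small shifts of a peak edge or by a single library. At tRNA:Trp-CCA-2-2, 287 bp from CG30122, the fold was 6.69 and 6.62 under mock treatment and 6.94 in knockdown replicate 1, and the peak of knockdown replicate 2 (5.61) ended 281 bp from the gene, outside the window. At tRNA:His-GTG-1-3, 250 bp from CG8490, mock replicate 1 (fold 4.39) and knockdown replicate 1 (4.44) reached the window, and the other lists had peaks at 303 and 292 bp. At tRNA:Gly-GCC-1-13, 396 bp from tud, which encodes the germ plasm protein Tudor, the fold was 12.01, 12.06, 5.52 and 10.47 in the 4 lists. Only the peak of mock replicate 1 counted, since it came to 245 bp and the others stopped at 275, 298 and 274 bp. At tRNA:Arg-TCT-1-1, 510 bp from CG34228, mock replicate 1 had a peak (5.78) 141 bp away and the nearest peaks of the other lists were 786, 771 and 810 bp away. Other values near the window's limit included those of tRNA:Ala-TGC-2-1 (235 bp, inside) and tRNA:Trp-CCA-2-2 (281 bp, outside). At the 1000 bp limit for a protein-coding start, tRNA:Trp-CCA-2-4 (981 bp from CG30389) was just inside and tRNA:His-GTG-1-2 (1011 bp from CG8490) just outside, and neither had a peak.

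**Figure D4:**
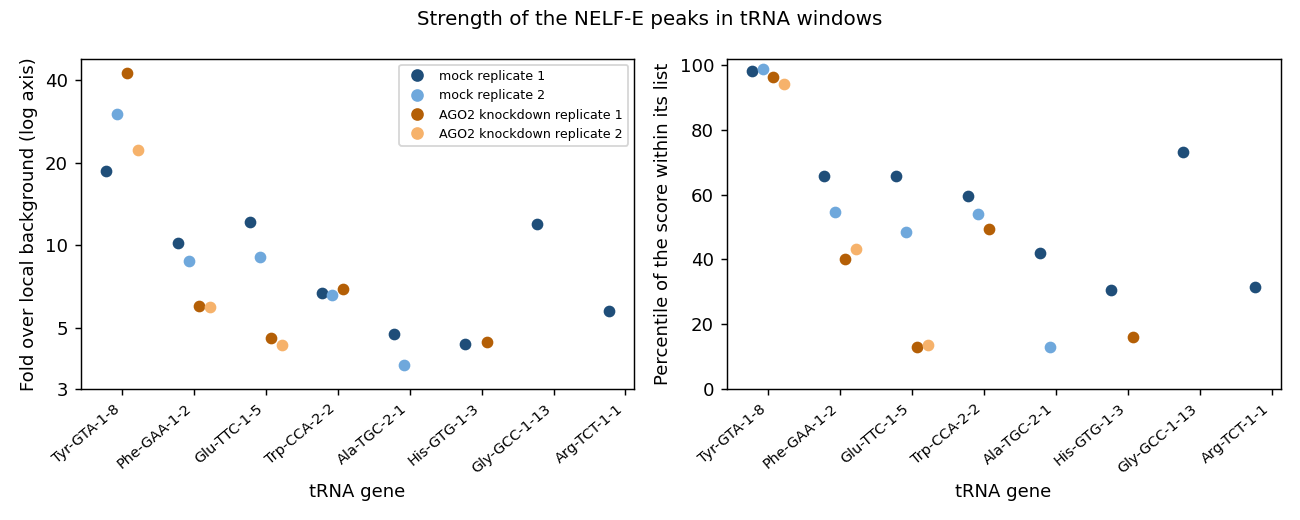
Fold over local background (left, log axis) and percentile of the score within its own list (right, %) of the peaks that reached the window of each of 8 tRNA genes, with a point for each library that had such a peak. tRNA:Tyr-GTA-1-8 lies at 18.65 to 42.38 fold and percentiles 94.0 to 98.9, above every other gene, and 4 genes have points from at most 2 libraries.

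Grouped by the amino acid they carry, Phe had the largest share of genes with a peak in all 4 lists (1 of 8, 12.5%), followed by Tyr (1 of 10) and Glu (1 of 19). The other isotypes with 5 or more genes had none, so the order of the first 3 rests on single genes. By chromosome arm, 6 of the 8 genes with any peak were on 2R, which holds 98 of the 290 genes, with 1 each on 3R and X and none on 2L or 3L. Of the 290 genes, 134 lie inside a protein-coding gene, 97 of them isolated by the 1000 bp rule.

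In the wider surroundings the share of tRNA genes with a peak was closer to that of the genome. Within 250 bp, 3 tRNA genes had a peak in all 4 lists. The number was 10 within 500 bp (3.45%, against 5.54% of all tiles) and 24 within 1000 bp (8.28%, against 8.71%). It was 50 within 2000 bp (17.2%, against 14.2%) and 77 within 5000 bp (26.6%, against 26.5%). Near genes had a peak within 1000 bp in 27.5%, 26.2%, 22.5% and 23.8% of cases, under the 42.8%, 38.6%, 34.5% and 36.1% of near tiles. Isolated genes had one within 1000 bp in 5.71%, 4.76%, 4.29% and 2.86% of cases, against 4.62%, 3.64%, 2.86% and 3.06% of isolated tiles, so knockdown replicate 2 was under its tiles and the other lists above. Within 2000 bp isolated genes had a peak in 17.6% and 17.6% of cases under mock treatment and 15.2% and 13.8% after AGO2 knockdown, above the 11.4%, 9.85%, 8.37% and 8.74% of isolated tiles. The median gap of isolated genes was 9006.5, 10851.5, 12835 and 12742.5 bp, shorter in each list than the 14763, 16419.5, 18730 and 18188 bp of isolated tiles. Isolated genes and tiles were not matched for their distance to a protein-coding start beyond 1000 bp. Near genes went the other way, with median gaps of 5767, 7028.5, 8565.5 and 7814.5 bp. Near tiles had shorter ones, of 2126, 2898, 3748 and 3419 bp. The 3 other genes whose sequences are printed above are near genes with a peak outside the window. At tRNA:Leu-TAA-2-1 the gaps were 516, 518, 545 and 490 bp. Its nearest protein-coding start, that of Root at 239 bp, had no peak in any list, whereas the start of the neighbouring gene CG13605 was occupied in each of the 4 lists. At tRNA:Pro-CGG-2-1, 471 bp from Bx, which encodes a LIM domain protein, they were 458, 463, 487 and 522 bp. At tRNA:Val-CAC-2-5, 827 bp from Naam, they were 315, 447, 520 and 475 bp.

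**Figure D5:**
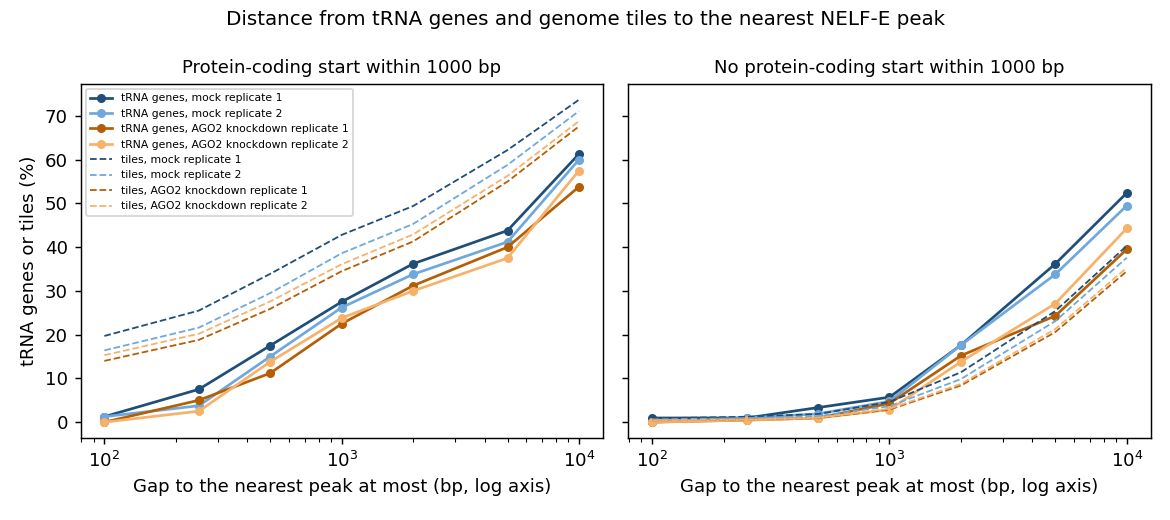
Cumulative share of tRNA genes (points and solid lines) and of 600 bp genome tiles (dashed lines) with a NELF-E peak at most the given gap away (x axis, bp, log scale), with a colour for each library. Near tRNA genes (left) stay under the tiles at every distance shown, and isolated tRNA genes (right) run above the tiles at 2000 bp, with 13.8 to 17.6% against 8.37 to 11.4%.

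Mock and knockdown libraries were compared by the number of tRNA genes with a peak. The mean was 6.5 ± 2.12 (SD, n = 2) in mock and 4.0 ± 1.41 (SD, n = 2) in AGO2 knockdown cells, a difference of -2.5 genes (two-sided exact permutation test, p = 0.667). Near genes gave 4.5 ± 2.12 against 3.0 ± 1.41, a difference of -1.5 (exact permutation test, p = 0.667, n = 2 each). Isolated genes gave 2.0 ± 0.0 against 1.0 ± 0.0, a difference of -1.0 (exact permutation test, p = 0.333, n = 2 each). The smallest p this design allows is 0.333, so no difference could pass 0.05. Mock replicate 2 and knockdown replicate 1 had the same count of 5 genes, and the groups overlapped for all genes and for near genes. The isolated counts did not overlap, with the difference made by tRNA:Ala-TGC-2-1 alone. The lists as a whole moved the same way, since the deeper mock libraries also had peaks in more tiles, given above. Nothing in the labels says whether the 2 libraries of a group came from separate cultures, so the spread between them may be technical.

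The protein-coding genes of the Pol III machinery, which are transcribed by Pol II, did carry NELF-E. Of 21 genes of Pol III transcription and early tRNA processing, 18 and 14 had a peak at a start under mock treatment and 13 and 16 after AGO2 knockdown. The background over all protein-coding genes at any start was 46.1%, 41.1%, 36.3% and 38.4%. In all 4 lists 12 of the 21 had a peak, against 34.1% of protein-coding genes. Among these, a few of which are given as examples chosen after their values were seen, Polr3F, a subunit of Pol III, had a fold of 16.47 and 13.36 under mock treatment and 12.13 and 13.61 after AGO2 knockdown. La, whose product binds the 3′ end of new Pol III transcripts, had 9.1 and 10.98 with mock treatment and 18.14 and 22.32 after knockdown. Bdp1, a subunit of TFIIIB, had 4.42 and 5.87 with mock treatment and 8.63 and 12.33 after knockdown. Trf, a TBP-related factor that works with TFIIIB in Drosophila, had 8.2 and 9.28 with mock treatment and 5.99 and 6.52 after knockdown. Polr3C, another Pol III subunit, had 6.77 and 4.87 with mock treatment and 3.93 and 4.87 after knockdown, so neither direction was shared by all of these genes. The libraries differed in background, so depth and treatment cannot be told apart in these folds. Another 6 genes had a peak in some lists (Polr3B, Polr3G, Polr3K, Tbp, Pbp49 and Rpp30). Brf, another TFIIIB subunit, Maf1, the repressor of Pol III, and Pbp45, of the snRNA activating complex, had no peak in any list.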

How the data were processed

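NELF-E ChIP-seq libraries were analysed from the deposited peak lists, 1 per library, with 2 mock and 2 AGO2 knockdown libraries. The 4 input samples were not analysed here. According to the study's methods, the authors trimmed single-end reads of 50 bases with cutadapt, aligned them to dm6 with Bowtie2, removed reads with a mapping quality under 20 and duplicates (Picard), and called peaks with MACS2 on each replicate against input. The submitters' processing notes name cutadapt 1.10, Picard 2.11.0 and MACS2 2.1.1.20160309. The study's methods name other versions of cutadapt and Picard. MACS2 settings for genome size and fragment length are not given for NELF-E in the sources used here. In the deposited lists the score equals 10 times the −log10 of the q-value without its decimals. The fold deposited with each peak is the ratio of the fragment pileup at the summit to the local background, with 1 added to each. It is therefore under the plain ratio, most of all where the background is low. The −log10 p and −log10 q columns were written by the authors with MACS2.

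Gene models came from Ensembl BDGP6 and sequence from the RefSeq genome of the same assembly. Peaks were overlapped with tRNA genes extended by 250 bp. Fragments at each summit and the local background were solved from the deposited fold and −log10 p under the Poisson model of MACS2. The solution was accepted within 0.005 of the deposited −log10 p, and for mock replicate 1 a pileup scale of 0.919 was applied. Sequence uniqueness was the share of 50-base words found once in the genome on both strands. Background shares came from tiles of 600 bp, with the central 100 bp standing for a gene and 250 bp on each side for its flanks, and from other genes. Counts per library were compared by two-sided exact permutation over libraries. No model across genes was fitted, since the lists hold no counts per region. The scripts were tested on simulated data. Python 3.11.15, numpy 2.4.6, pandas 2.3.3, scipy 1.17.1 and matplotlib 3.10.9 were used.

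The members and gene lists were chosen with earlier results of these data known. Genes were named by a rule: isolated genes with a peak in all 4 lists, genes with a peak in both libraries of 1 group only, up to 5 near genes with a peak in all 4 lists, the genes at the limits of 250 and 1000 bp, and the extreme isotypes. The other genes with any peak, the genes shown by sequence, tRNA:Tyr-GTA-1-9, the Pol III genes given as examples, the count of single starts and the B box consensus were chosen after their values were seen. Of 22 listed Pol III genes, Rpp14 was not matched in the annotation. Alternatives tried were other windows and distance limits, summits in place of overlaps, stronger peaks, merged loci, distinct windows only, outermost starts, a replicate block and leaving out each library.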

Additional observations from a re-analysis of the deposited data

How the results depend on the processing

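Of 88 alternative values, 66 kept their direction and their side of the test's threshold or, where there was no test, stayed within 1 SD or 1.5 times of the value reported. Another 21 moved farther and 1 changed sign. Apart from the settings that leave out a library, 40 values were kept, 19 moved and 1 changed sign. No p could fall under 0.333, so no value could change its side of the threshold, and that part of the count was fixed in advance. The direction of the knockdown minus mock difference was kept with each library left out, at -4.0 to -1.0 for all tRNA genes and -1.0 for isolated genes, and a replicate block left both at -2.5 and -1.0 (exact sign-flip test, p = 0.5, the smallest possible). With the gene body alone, the differences, the genes in all 4 lists, the genes in mock lists only and the difference between near and isolated genes were all 0. With 500 bp either side, 10 genes (2 isolated) had a peak in all 4 lists, 2 in mock lists only, near exceeded isolated genes by 12.6 percentage points, and knockdown minus mock was -6.5 for all and -3.5 for isolated genes. With the summit in the window, 0 genes had a peak in all 4 lists, 0 isolated, 0 in mock lists only, and near minus isolated turned to -0.119 points, since a single summit counts, and knockdown minus mock was -0.5 for both sets. The stronger 50% of each list left 1 gene in all 4 lists, 0 isolated, and 2 in mock lists only, and the top 5904 peaks of each list gave 0 in mock lists only. The isolated difference was also -0.5 in the stronger 50% and in the top 5904 peaks. A limit of 500 bp to a protein-coding start gave 9.93 points and 2000 bp gave 2.09 points, and outermost starts alone gave 2 isolated genes in all 4 lists. Leaving out each library gave 3 to 4 genes in all 4 lists, 1 isolated, 1 to 3 in mock lists only (3 without mock replicate 2, 2 without knockdown replicate 1), 0 in knockdown lists only and 3.12 to 4.62 points.

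Peak lists hold called peaks only, so signal too weak to be called was not seen. The deepest library had 3.78 times the background fragments of the shallowest, and its lists of peaks were the longest. A missing peak in a shallow library is not a missing protein. The cause of the moved values was not tested, except where the setting itself removes peaks or windows.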

Other observations

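The 22 mitochondrial tRNA genes lie outside the nuclear arms and were not members. Mock replicate 1 had 1 peak on the mitochondrial chromosome, with a fold of 2.45, and it reached the window of 1 of these genes. The other 3 lists had no peak there. None of the 5 tRNA pseudogenes on the nuclear arms had a peak in its window, and the nearest peaks were 921, 966, 979 and 981 bp away in mock replicates 1 and 2 and knockdown replicates 1 and 2.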
